A study of Danio rerio with 28 samples.

Results

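Steroid hormones are made from cholesterol by a short chain of transport proteins and enzymes, and 10 zebrafish genes of this chain were followed in embryos that grew with or without added estrogen: star, cyp11a1, cyp17a1, cyp11c1, cyp21a2, cyp19a1a, hsd3b1, hsd3b2, hsd17b1 and hsd17b3. A probe was taken as a member's probe where the RefSeq accession given for it on the array was that of the member. Probes were not sought by a gene name on the array, and measured values played no part in this choice. Of the 10 genes, 7 were matched by 12 of the 43603 probes, and cyp11c1, cyp21a2 and hsd3b1 were not analysed here. The gene listed as cyp11a1 has the name cyp11a1.1 in the current annotation, and hsd3b1 is also an older name of hsd3b2.

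RNA of whole wild type embryos of the strain DZ was measured on 1-colour Agilent arrays, with 1 array for each pool of 30 embryos. Embryos were kept from about 3 hours post fertilization (hpf) in 1 µM 17β-estradiol (E2) dissolved in DMSO or in the carrier alone (0.1% DMSO), with daily renewal of the medium, and were collected at 24, 48, 72 and 104 hpf, referred to as 1, 2, 3 and 4 days post fertilization (dpf). At 1 and 2 dpf each treatment had 3 arrays, at 3 and 4 dpf it had 4, and the 28 arrays thus form 8 groups. Replicates came from different batches of embryos, and each batch was divided between E2 and DMSO. All arrays hold RNA of whole embryos, so that fewer cells of a type and less RNA per cell cannot be told apart, and how precisely any value is known depends on the small number of arrays.

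Steroid synthesis begins when the product of star moves cholesterol to the inner mitochondrial membrane, where Cyp11a1 cuts off the side chain and releases pregnenolone. 3β-hydroxysteroid dehydrogenases, Cyp17a1, Cyp21a2 and Cyp11c1 then lead to progestins, androgen precursors and cortisol, the main glucocorticoid of fish, while 17β-hydroxysteroid dehydrogenases and aromatase complete testosterone and estradiol. In fish larvae the interrenal gland, the counterpart of the adrenal cortex, makes cortisol, and the gonads make sex steroids later in life.

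Values below are log2 signals after quantile normalization. A spot is called well above background where the scanner software gave it that flag, the main probe of a gene is the one with the highest mean signal, and levels are compared within a probe only. Between 58.1% and 73.8% of the spots were well above background on 27 arrays and 96.1% on the array of 3 dpf E2 replicate 1, which therefore counts dim spots as measured more readily than the others. The lowest shares were those of 4 dpf E2 replicate 4 (58.1%), 1 dpf E2 replicate 2 (58.7%) and 4 dpf E2 replicate 2 (63.9%). The dimmest signals well above background on these were 4.35, 4.33 and 3.62, against at most 3.34 elsewhere. These E2 arrays thus count dim spots as measured less readily. The array of 4 dpf E2 replicate 4 had 529 outlier spots, against a median of 9 per array. Among 4 marker genes of the interrenal gland with a probe, mc2r, the corticotropin receptor, was well above background on 1 of 28 arrays and nr5a1a, a transcription factor of steroid-producing cells, on 9, while star and cyp17a1 were above it on all 28. The signals of the members in whole embryos were not assigned to a tissue.

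Between 1 and 2 dpf, 1 of the 7 measured members was higher and 2 were lower (limma, adjusted p under 0.05), beside 12.3% and 12.8% of all probes. star rose 11.5-fold, and cyp11a1 fell by 6.19 and hsd3b2 by 1.93 on the log2 scale. cyp17a1 was lower at later ages, with a call from 3 to 4 dpf on its main probe and from 2 to 3 dpf on its second. Both calls were lost in a fit without the replicate number as a block, and the steps were not compared in a test. The probe of hsd17b1 was above background on 0 of 28 arrays and that of cyp19a1a on 2, both with E2. No member passed the test for E2 at any age.

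star encodes the steroidogenic acute regulatory protein, the carrier of cholesterol into mitochondria. In DMSO embryos the main probe (A_15_P117295) gave 4.31, 5.41 and 5.45 at 1 dpf and 8.57, 8.52 and 8.67 at 2 dpf. All 2 dpf arrays lay far above all 1 dpf arrays, and the lowest value at 1 dpf was that of replicate 1. The mean rose from 5.06 ± 0.64 (SD, n = 3) to 8.58 ± 0.07 (SD, n = 3), a difference of 3.53 with an SE of 0.23 (limma, adjusted p = 1.17e-09 over all probes). The rise was 3.68 and 3.22 within the 2 scan batches that held both ages, and between 3.18 and 3.74 when each array was left out in turn. With normexp background correction, which adds an offset of 50 to every signal and so draws dim values together, it was 2.22 (adjusted p = 1.84e-11).

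After this rise the star signal moved little. DMSO arrays gave 8.50, 8.47, 8.27 and 8.25 at 3 dpf and 8.64, 8.50, 8.68 and 8.34 at 4 dpf, and neither the change from 2 to 3 dpf (-0.19, adjusted p = 0.693) nor that from 3 to 4 dpf (0.17, adjusted p = 0.811) passed the test in limma. E2 arrays gave 4.82, 4.54, 5.63 (1 dpf), then 8.43, 8.42, 8.54 (2 dpf), 8.16, 8.45, 8.21, 8.24 (3 dpf), and finally 8.58, 8.59, 8.65, 8.67 (4 dpf). The E2 arrays were thus also low at 1 dpf alone, a step that was not tested in them. In the order of the 8 group means, from 8.62 in 4 dpf E2 down to 8.27 in 3 dpf E2, each group overlapped its neighbour, a gap followed, and the 1 dpf groups with means of 5.06 and 5.00 overlapped each other. The second star probe (A_15_P366845), above background on 27 arrays, ran from 3.26, 4.15 and 4.33 at 1 dpf to 7.16, 7.44 and 7.59 at 2 dpf in DMSO embryos, a difference of 3.48 (limma, adjusted p = 1.42e-09), and its correlation with the main probe over the 28 arrays was 0.99.

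**Figure D1:**
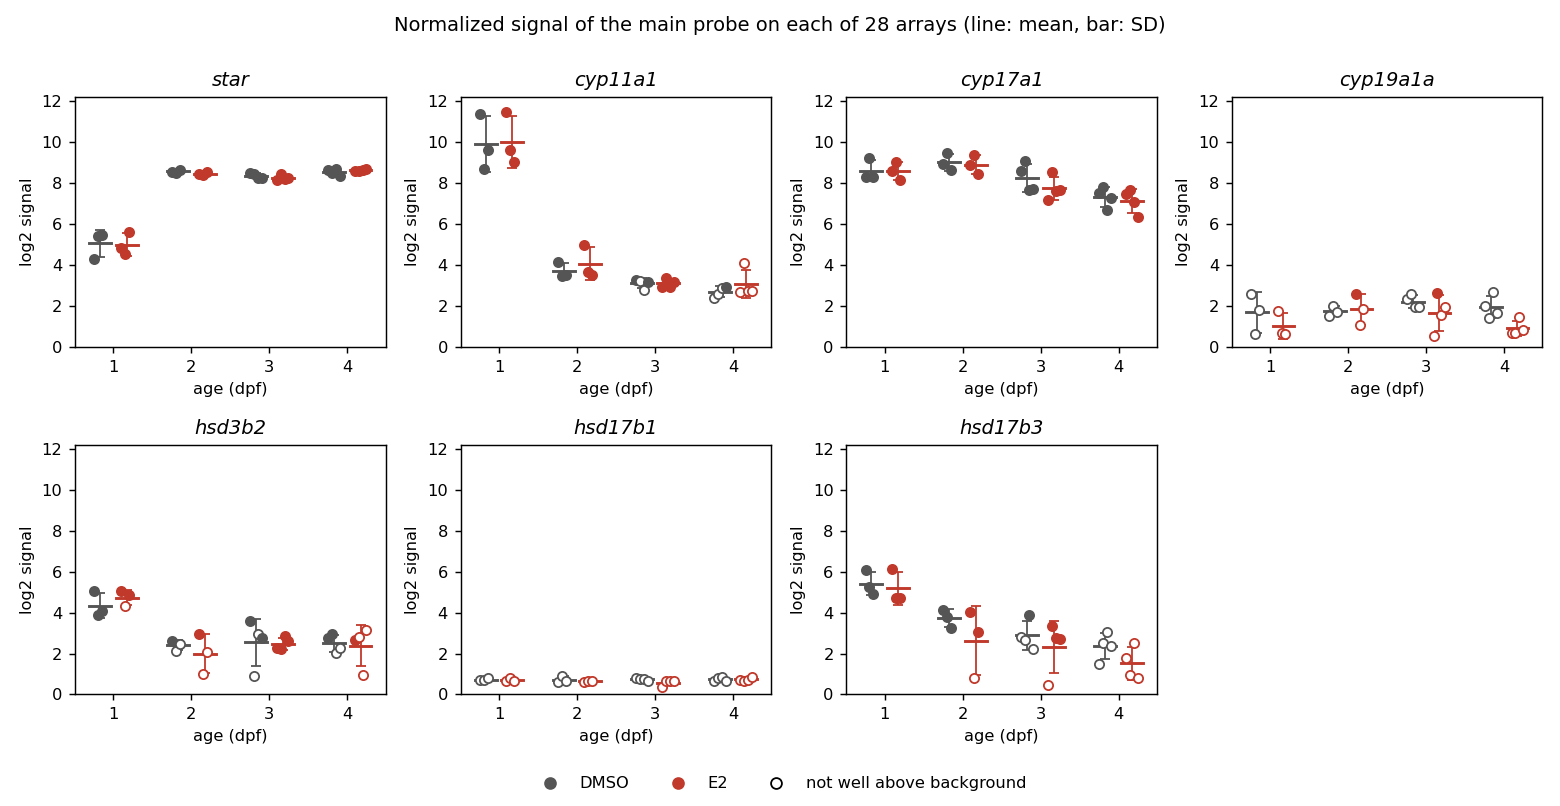
Log2 normalized signal of the main probe of each measured member (y axis) against age in dpf (x axis) on each of 28 arrays, with DMSO in grey, E2 in red, open circles for spots not well above background, and the group mean and SD as line and bar. star steps up after 1 dpf, cyp11a1 and hsd3b2 step down, cyp17a1 is lowest at 4 dpf, and cyp19a1a and hsd17b1 are open on nearly all arrays.

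cyp11a1 encodes the side-chain cleavage enzyme, which carries out the first and rate-limiting conversion of cholesterol. It had the highest signals at 1 dpf, where the main probe (A_15_P211711) gave 11.37, 8.68 and 9.62 in DMSO and 11.46, 9.60 and 9.03 in E2 embryos. At 2 dpf it gave 4.14, 3.45 and 3.49 in DMSO and 5.00, 3.68 and 3.53 in E2 embryos. Both treatments were thus several log2 units lower at 2 dpf with a wide gap between the ages, and replicate 1 was the highest of its group in all 4 cases. In DMSO embryos the mean fell from 9.89 ± 1.37 (SD, n = 3) to 3.70 ± 0.39 (SD, n = 3), a decrease of 73.2-fold (log2 difference -6.19, SE 0.53, limma adjusted p = 3.69e-08), and it was -6.23 and -6.13 within scan batches and -3.53 with normexp background correction (adjusted p = 1.91e-07).

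From 2 dpf on the cyp11a1 signal was close to background. At 3 dpf, DMSO arrays gave 3.29, 3.24, 2.77 and 3.16 and E2 arrays 2.94, 3.36, 2.95 and 3.18, with 2 and 4 spots above background. At 4 dpf, DMSO arrays gave 2.37, 2.59, 2.87 and 2.94 and E2 arrays 2.71, 4.10, 2.71 and 2.72, and only DMSO replicate 4 was above background. The 2 dpf groups lay above all arrays of 3 dpf, and the 3 and 4 dpf groups overlapped. The changes from 2 to 3 dpf (-0.58, adjusted p = 0.537) and from 3 to 4 dpf (-0.42, adjusted p = 0.773) did not pass the test in limma.

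The second cyp11a1 probe (A_15_P119670) was above background on 9 arrays. It gave 8.45, 6.88 and 4.79 at 1 dpf and 2.37, 1.21 and 0.61 at 2 dpf in DMSO embryos, where no 2 dpf spot was above background. Its signal was thus at least 20.5-fold lower at 2 dpf (measured log2 difference -5.31, SE 1.04, limma adjusted p = 0.000619), taking for each 2 dpf array the dimmest signal that was well above background as the level the probe could have reached. Over the 28 arrays it correlated with the main probe at r = 0.84, and at 0.93 over 27 arrays without 3 dpf E2 replicate 1, on which it stood at 7.05.

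hsd3b2 encodes a 3β-hydroxysteroid dehydrogenase, the type of enzyme that converts pregnenolone to progesterone. Its main probe (A_15_P208776) gave 5.04, 3.90 and 4.08 at 1 dpf and 2.63, 2.13 and 2.47 at 2 dpf in DMSO embryos. The ages did not overlap, and only replicate 1 was above background at 2 dpf. The mean went from 4.34 ± 0.61 (SD, n = 3) to 2.41 ± 0.25 (SD, n = 3), a 3.81-fold decrease (log2 difference -1.93, SE 0.53, limma adjusted p = 0.00921). This call did not hold with each array scaled to its 75th percentile in place of quantile normalization (-1.66, adjusted p = 0.0567), and its size was far smaller with normexp (-0.31, adjusted p = 0.00219).

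E2 embryos gave 5.03, 4.31, 4.86 (1 dpf) and 2.94, 1.01, 2.06 (2 dpf) on the main hsd3b2 probe. Replicate 2 was not above background at either age, and replicate 3 was not at 2 dpf. At 3 dpf the values were 3.60, 0.90, 2.96 and 2.74 in DMSO and 2.25, 2.23, 2.84 and 2.59 in E2 embryos, and at 4 dpf 2.76, 2.95, 2.04 and 2.27 in DMSO and 2.64, 2.81, 0.93 and 3.15 in E2 embryos. The 1 dpf groups were the highest and did not overlap the others, while the 6 later groups all overlapped their neighbours in the order of means, between 2.00 and 2.55. The second probe (A_15_P112736) gave 6.78, 5.24 and 5.85 at 1 dpf and 2.80, 1.75 and 2.98 at 2 dpf in DMSO embryos, with 1 spot of 3 above background at 2 dpf, and fell by 3.45 (SE 0.48, limma adjusted p = 1.6e-05). It fell further to 0.81, 1.97, 0.70 and 0.64 at 3 dpf (limma adjusted p = 0.0376), where no spot was above background, so that no fold is given, and this second call was lost in 5 of 8 fits that left out 1 array, with adjusted p between 0.0129 and 0.222. The probes of hsd3b2 correlated at r = 0.66 over the 28 arrays.

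**Figure D2:**
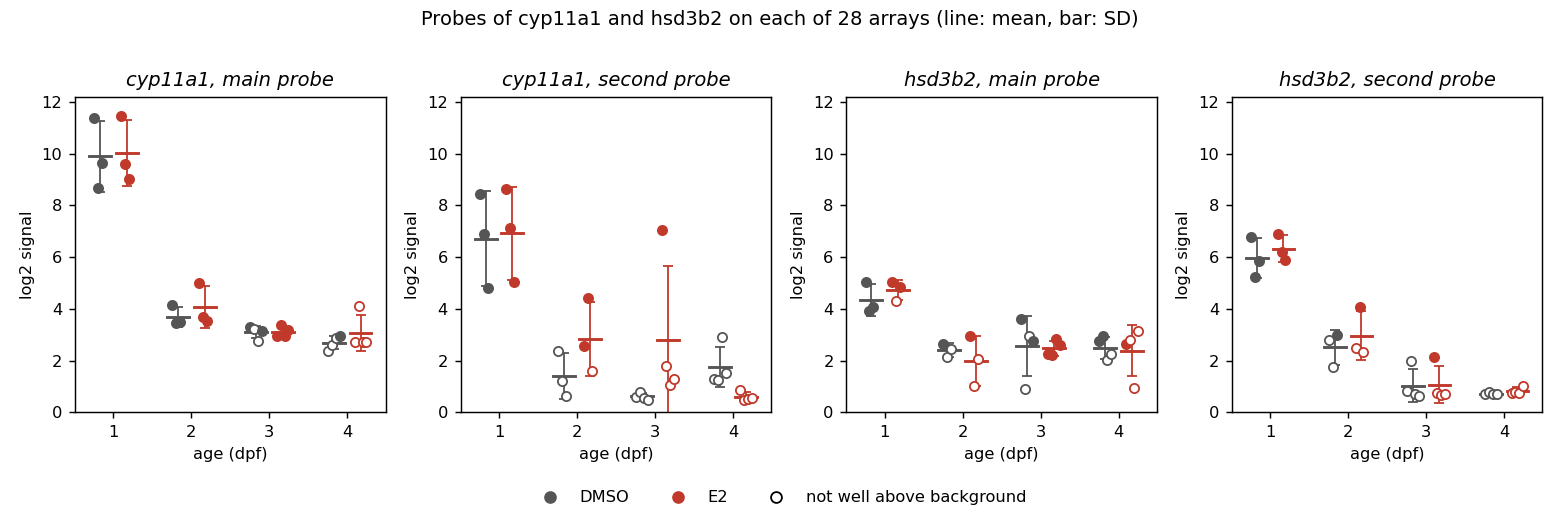
Log2 normalized signal (y axis) of the main and the second probe of cyp11a1 and hsd3b2 against age in dpf (x axis) on each of 28 arrays, with DMSO in grey, E2 in red, open circles for spots not well above background, and the mean and SD of each group. Every probe is highest at 1 dpf, and 3 dpf E2 replicate 1 stands apart at 7.05 on the second cyp11a1 probe.

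cyp17a1 encodes the 17α-hydroxylase and 17,20-lyase, which opens the way to cortisol and to androgens. Its main probe (A_15_P549682) was above background on all arrays and kept a high signal at every age, with 8.31, 9.21 and 8.30 at 1 dpf and 8.93, 9.46 and 8.65 at 2 dpf in DMSO embryos. At 3 dpf DMSO arrays gave 8.60, 9.07, 7.68 and 7.69, and at 4 dpf 7.50, 7.83, 6.67 and 7.29. The ages overlapped, but replicate 2 was the highest array at each of them, and from 3 to 4 dpf the signal was lower in 4 of 4 same-numbered replicates, by -1.10, -1.24, -1.01 and -0.40.

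The mean of cyp17a1 fell from 8.26 ± 0.69 (SD, n = 4) at 3 dpf to 7.33 ± 0.49 (SD, n = 4) at 4 dpf, a log2 difference of -0.94 with an SE of 0.20 (limma with the replicate number as a block, adjusted p = 0.00447). Without the block the same difference had an adjusted p of 0.193. Within the scan batches that held both ages it was -0.93 and -0.71. The batch with -0.93 held replicates 1 and 2 of 4 dpf but only replicate 1 of 3 dpf. The change from 1 to 2 dpf (0.41, adjusted p = 0.25) and that from 2 to 3 dpf (-0.63, adjusted p = 0.0635) did not pass the test in limma, although the latter did under 4 of the processing alternatives given in the closing section.

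The other cyp17a1 probes also had lower signals with age. The second probe (A_15_P212841) gave 7.51, 6.92, 6.42 (2 dpf), then 6.29, 5.81, 4.87, 4.81 (3 dpf), and 5.22, 4.87, 4.09, 3.63 (4 dpf) in DMSO embryos. The drop fell on the step from 2 to 3 dpf for this probe (-1.33, SE 0.35, limma adjusted p = 0.0129), where the groups did not overlap. No slide held DMSO arrays of both these ages. The step from 3 to 4 dpf missed the threshold (-0.99, adjusted p = 0.0544). The call from 2 to 3 dpf was lost without the replicate block (adjusted p = 0.0593) and without 2 dpf DMSO replicate 1 (adjusted p = 0.0677). The third probe (A_15_P285131) gave 5.11, 5.07, 4.17 and 4.30 at 3 dpf and 4.28, 4.48, 3.11 and 3.21 at 4 dpf. The spot at 3.11 was not well above background. The difference was -0.90 (SE 0.28, limma adjusted p = 0.046). This call was lost without the block (adjusted p = 0.284) and in 7 of 9 fits that left out 1 array (adjusted p between 0.0309 and 0.203). The main probe correlated with the others at r = 0.89 and r = 0.90 over the 28 arrays.

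Replicate number and age together described most of the spread of cyp17a1. Age accounted for 65.2% of the sum of squares of its main probe over the 28 arrays and replicate number for 23.9%, against 0.53% for replicate number in star and 1.17% in cyp11a1. Age accounted for 97.0% in star, 95.2% in cyp11a1, 65.8% in hsd3b2 and 66.2% in hsd17b3. Among the 5 members above background on at least 14 arrays the share of E2 was at most 5.26%, in hsd17b3. It was 17.6% in cyp19a1a and 11.8% in hsd17b1, whose signals were not well above background on 26 and 28 arrays. These shares are a description of the 28 arrays.

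**Figure D3:**
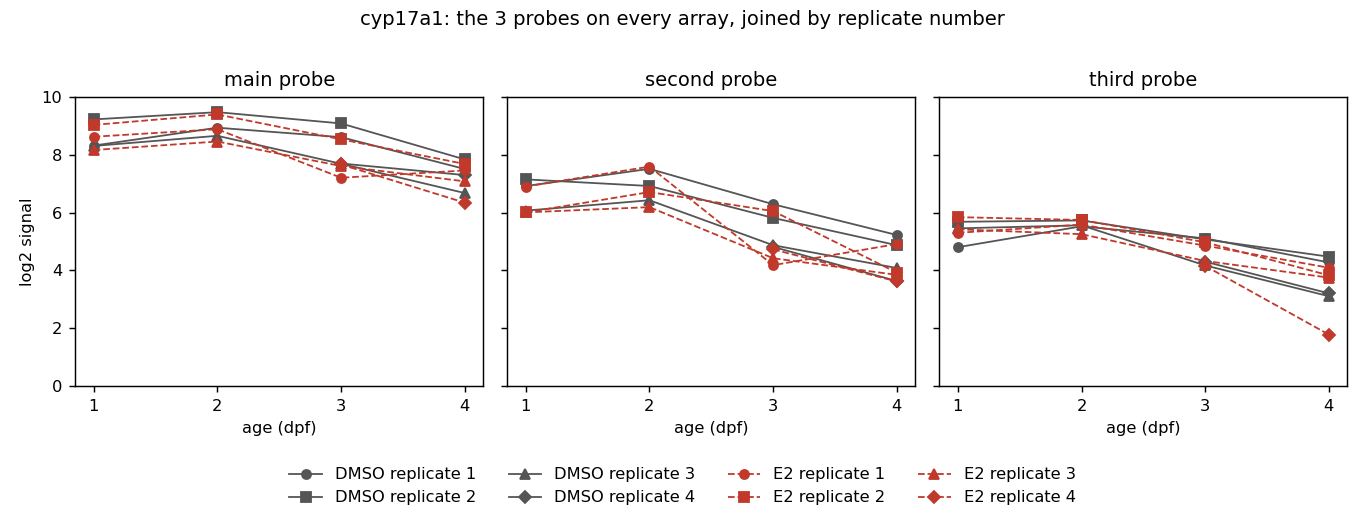
Log2 normalized signal (y axis) of the 3 cyp17a1 probes against age in dpf (x axis), with arrays of the same treatment and replicate number joined by a line, DMSO in grey and solid, E2 in red and dashed. All 3 probes are lower at 4 dpf than at 2 dpf, and E2 replicate 1 dips at 3 dpf on the main probe (7.20) and the second probe (4.18).

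hsd17b3 encodes the 17β-hydroxysteroid dehydrogenase that in mammals makes testosterone from androstenedione. Its single probe (A_15_P104177) was above background on 15 arrays and gave 6.06, 5.27 and 4.93 at 1 dpf and 4.13, 3.78 and 3.27 at 2 dpf in DMSO embryos. The ages did not overlap and the difference was -1.69, but with an SE of 0.75 it did not pass the test (adjusted p = 0.118 in limma, 0.037 unadjusted). It passed under 4 of the alternatives given in the closing section. At 3 dpf DMSO arrays gave 2.83, 2.64, 3.87 and 2.22, with replicate 3 alone above background, and at 4 dpf 1.51, 2.50, 3.05 and 2.35, with none. E2 arrays gave 6.11, 4.73, 4.70 (1 dpf), then 4.04, 0.78, 3.06 (2 dpf), 0.45, 3.35, 2.74, 2.70 (3 dpf), and finally 1.80, 0.94, 2.52, 0.82 (4 dpf). The 1 dpf groups, with means of 5.42 and 5.18, overlapped each other and lay above the rest, and the later groups overlapped from 3.73 in 2 dpf DMSO down to 1.52 in 4 dpf E2.

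cyp19a1a encodes the aromatase of the gonad, which turns androgens into estrogens. Its probe (A_15_P120366) was above background on 2 of 28 arrays, 2 dpf E2 replicate 1 at 2.60 and 3 dpf E2 replicate 2 at 2.65, and its signals ran from 0.55 to 2.70 with overlapping neighbours in the order of group means. hsd17b1, the enzyme that in mammals converts estrone to estradiol, was above background on 0 of 28 arrays, with signals from 0.37 to 0.91 on its probe (A_15_P107301). No level and no order can be given for these genes in whole embryos of this age.

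Across the members, adjusted p was under 0.05 for 1 of 7 in the higher and 2 of 7 in the lower direction from 1 to 2 dpf, for 0 of 7 from 2 to 3 dpf, and for 0 higher and 1 lower from 3 to 4 dpf. Over all 43603 probes the shares were 12.3% higher and 12.8% lower from 1 to 2 dpf, 8.97% and 7.29% from 2 to 3 dpf, and 4.69% and 6.14% from 3 to 4 dpf. From 2 to 3 dpf, 1 member had an unadjusted p under 0.05 in limma, cyp17a1, beside 12009 of all probes. The analysis of variance that the study's methods name called 1 member after adjustment, cyp11a1 (adjusted p = 0.041), beside 10556 of all probes. The median log2 change of the 7 members was -0.00142 from 1 to 2 dpf, -0.19 from 2 to 3 dpf and -0.27 from 3 to 4 dpf, beside -0.09, -0.01 and -0.06 over all probes. Neighbouring comparisons of age share DMSO arrays and are not independent of each other.

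The question of the study was what E2 changes in the embryo, and each age was therefore compared between treatments. Not a single member (of 7) or member probe (of 12) reached an adjusted p under 0.05 in limma at any age, beside 0%, 0.00688%, 0.0321% and 0.0871% of all probes at 1, 2, 3 and 4 dpf. With p-values from limma, none passed the thresholds that the methods name, an unadjusted p of at most 0.01 with a fold change of at least 1.4. By the same p-values 0.406%, 0.229%, 0.766% and 0.493% of all probes passed them at 1, 2, 3 and 4 dpf. The methods' analysis of variance was rerun here on the deposited signals, without the study's own program for removing batch effects. Members were counted in the rerun by their main probes only, and 0 of 7 passed these thresholds at each age. Of all 43603 probes, 70, 73, 125 and 169 passed them in the rerun at 1, 2, 3 and 4 dpf. The further member probes, the second cyp11a1 probe among them, were not counted in it. An unadjusted p under 0.05 was found for 0, 0, 1 and 1 members at the 4 ages with limma. Of all 43603 probes, 790, 577, 2748 and 1215 had one. With the methods' analysis of variance it was found for 0, 0, 0 and 1 members, and all probes were not counted for it. After adjustment that analysis called 0 members, beside 0, 0, 0 and 28 of all probes. Median log2 changes of the members were -0.03, -0.11, -0.16 and -0.12, beside 0.02, 0.01, -0.02 and -0.00352 over all probes.

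The precision of these comparisons differed between the members. For star the E2 change was -0.06 at 1 dpf (95% interval -0.54 to 0.43), -0.12 at 2 dpf (-0.61 to 0.36), -0.11 at 3 dpf (-0.53 to 0.31) and 0.08 at 4 dpf (-0.33 to 0.50). All intervals of star lay within about 0.61 log2 units of 0. For cyp11a1 the change at 1 dpf, where its signal was high, was 0.14 (-0.97 to 1.25), and for hsd3b2 0.39 (-0.71 to 1.49). At 2, 3 and 4 dpf, with signals near background, the changes were 0.37 (-0.74 to 1.49), -0.01 (-0.97 to 0.96) and 0.36 (-0.60 to 1.33) for cyp11a1, and -0.41 (-1.51 to 0.69), -0.07 (-1.02 to 0.88) and -0.12 (-1.07 to 0.83) for hsd3b2. None of these intervals excluded 0. For hsd17b3 it was -0.24 at 1 dpf (-1.82 to 1.34) and -1.10 at 2 dpf (-2.68 to 0.48), where E2 replicate 2 was not above background at 0.78. Later it was -0.58 at 3 dpf (-1.95 to 0.79) and -0.83 at 4 dpf (-2.20 to 0.54). A 2-fold change is 1 unit on this scale. The intervals reached past a 2-fold increase for cyp11a1 at 1, 2 and 4 dpf and for hsd3b2 at 1 dpf, past a 2-fold decrease for hsd3b2 at 2, 3 and 4 dpf and for hsd17b3 at 2, 3 and 4 dpf, and past both for hsd17b3 at 1 dpf.

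cyp17a1 came nearest to a change with E2. At 3 dpf its main probe gave 8.60, 9.07, 7.68 and 7.69 in DMSO and 7.20, 8.53, 7.60 and 7.66 in E2 embryos. The E2 array was the lower in 4 of 4 same-numbered replicates, the gap was widest in replicate 1, and the groups overlapped. The difference was -0.51 (95% interval -0.94 to -0.09) with an unadjusted p of 0.0202 and an adjusted p of 0.654 in limma. It was -0.28 without 3 dpf E2 replicate 1, the array with the raised share of spots above background, and -0.74 and -0.06 within the 2 scan batches that held both treatments. The batch with -0.74 held E2 replicates 1 and 2 but only DMSO replicate 1, so its arrays were not matched by number. On the other probes the E2 difference over all arrays was -0.60 (adjusted p = 0.654) and -0.09 (adjusted p = 0.949).

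At the other ages the cyp17a1 main probe in E2 embryos gave 8.62, 9.02, 8.16 (1 dpf), then 8.88, 9.39, 8.45 (2 dpf), and 7.45, 7.68, 7.08, 6.34 (4 dpf). These overlapped the DMSO arrays, with differences of -0.01 at 1 dpf (95% interval -0.50 to 0.48), -0.11 at 2 dpf (-0.60 to 0.38) and -0.19 at 4 dpf (-0.61 to 0.24). The lowest value, 6.34, was that of 4 dpf E2 replicate 4, the array with 529 outlier spots. In the order of the group means, from 9.01 in 2 dpf DMSO to 7.14 in 4 dpf E2, every group overlapped its neighbour.

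**Figure D4:**
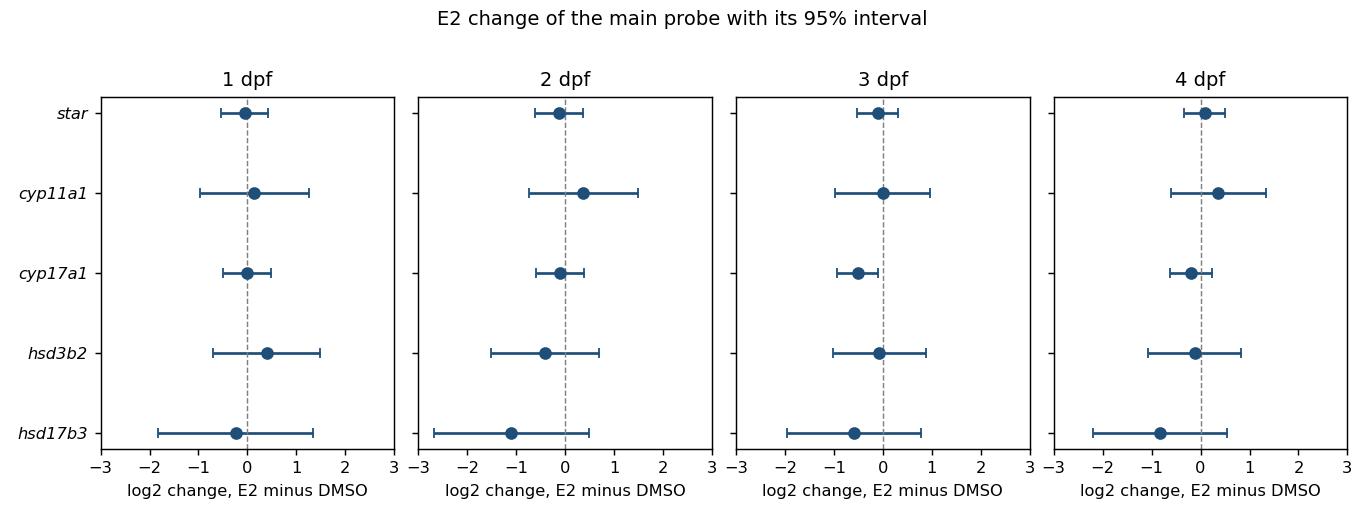
Log2 change of the main probe, E2 minus DMSO (x axis), for the 5 members above background on at least 14 arrays (y axis), with points for the limma estimate, bars for its 95% interval and a panel for each age. The bars cross 0 except for cyp17a1 at 3 dpf, and none of these changes had an adjusted p under 0.05.

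The second cyp11a1 probe and the cyp19a1a probe also had an unadjusted p under 0.05. On the former, 3 dpf DMSO arrays gave 0.60, 0.80, 0.56 and 0.49 and E2 arrays 7.05, 1.79, 1.07 and 1.29. Only E2 replicate 1 was above background, and the difference of 2.19 (adjusted p = 0.654 in limma, 0.0251 unadjusted) was 0.97 without it. The main cyp11a1 probe gave 2.94 on that array, close to the other arrays of the group. For cyp19a1a at 4 dpf the signals were 2.00, 1.42, 2.70 and 1.66 in DMSO and 0.70, 0.69, 1.46 and 0.82 in E2 embryos. None was well above background, so that no fold is given (adjusted p = 1 in limma, 0.0343 unadjusted).

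The E2 effect was also compared between ages, in an F-test of the stage-by-E2 terms. It had an adjusted p under 0.05 for 0 of 7 members, beside 0.0734% of all probes. The adjusted p was 1 for all 12 member probes, and the lowest unadjusted p was 0.0865, for the second cyp11a1 probe.

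Among the members, signals ran together or in opposite directions over the 28 arrays, mostly with age. Pearson's r was -0.97 between star and cyp11a1, 0.81 between cyp11a1 and hsd3b2, 0.80 between cyp11a1 and hsd17b3, and -0.81 between star and hsd3b2. cyp17a1 stood apart, with r between -0.32 and 0.49 to the other 4 members that were above background on at least 14 arrays. The arrays share 4 ages, so these are descriptions.

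The named genes with the most similar course to each member were sought over the same 28 arrays. For star they were scrt1b (r = 0.99), and3 (0.99) and pyya (0.98), each higher at 4 dpf than at 1 dpf. For cyp11a1 they were znfl1 (0.98), zp3a.1 (0.97) and taldo1 (0.97), and zp3a.1 encodes a protein of the egg coat. cyp17a1 was followed by cuedc1b (0.93), dmbx2 (0.91) and tlx1 (0.89), hsd3b2 by fat3a (0.85), s1pr5a (0.84) and ankrd31 (0.84), and hsd17b3 by prg4a (0.94), ddx55 (0.93) and uri1 (0.92). Of these genes, zp3a.1 was well above background on only 7 of 28 arrays, fat3a on 5 and ankrd31 on 8, so that much of their course lies in dim signals. znfl1 was above it on 18, prg4a on 23 and the others on 27 or 28.

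Paralogs and further enzymes of steroid metabolism had a probe for 16 of 21 genes. From 1 to 2 dpf 3 were higher and 2 lower (limma, adjusted p under 0.05), beside 12.3% and 12.8% of all probes. From 2 to 3 dpf 5 were higher and 0 lower, beside 8.97% and 7.29%. From 3 to 4 dpf 4 were higher and 0 lower, beside 4.69% and 6.14%. Whether these counts depart from the shares was not tested. hsd11b2, which inactivates cortisol, rose by 3.23 from 1 to 2 dpf (6.57 to 9.80, adjusted p = 1.93e-09). srd5a2a, a steroid 5α-reductase, rose by 2.61 from 3 to 4 dpf (adjusted p = 7.37e-06), and hsd17b12b by 1.11 from 2 to 3 dpf (adjusted p = 6.44e-05), while hsd17b14 fell by 1.35 from 1 to 2 dpf (adjusted p = 7.54e-08). The call of srd5a2b as higher from 1 to 2 dpf rested on spots that were not above background at either age.

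cyp19a1b, the aromatase of radial glia in the fish brain, was the only gene of this list with an adjusted p under 0.05 for E2. Its mean was 4.75 in DMSO and 7.35 in E2 embryos at 2 dpf, where the log2 change was 2.60 (SE 0.57) without overlap of the arrays, and it passed the thresholds of the methods (unadjusted p = 0.00023 in limma) but not the adjusted test (adjusted p = 1). At 3 dpf the means were 5.23 in DMSO against 10.6 in E2 embryos, with DMSO arrays from 4.15 to 7.87 (SD 1.77). At 4 dpf the means were 5.23 in DMSO against 11.9 in E2 embryos. These log2 changes were 5.38 (SE 0.50, adjusted p = 1.33e-05) and 6.67 (SE 0.50, adjusted p = 1.09e-07) at 3 and 4 dpf in limma, and no array overlapped between treatments. With normexp they were 3.79 and 5.23. Leaving out single arrays gave changes of 5.02 to 6.25 at 3 dpf. cyp19a1a, the gonadal counterpart, was above background on 2 of the 28 arrays, as given above, and on none at 4 dpf. For cyp17a2, the paralog of cyp17a1, 2 of 28 arrays were above background, and cyp11a2 was not analysed here.

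Mitochondrial and microsomal P450 enzymes need electron donors, and 5 of 7 such genes had a probe. fdx1b, the ferredoxin of steroid-producing mitochondria in zebrafish, rose by 2.13 from 1 to 2 dpf (5.13 to 7.26, SE 0.18, adjusted p = 3.7e-08), over the same interval as star. cyb5b fell by 1.06 over it (adjusted p = 5.4e-05), cyb5a rose by 0.71 from 3 to 4 dpf (adjusted p = 0.00371), and these were the only calls in this list at any age in limma, with none for E2. Among all probes, 12.3% were higher and 12.8% lower from 1 to 2 dpf, and 4.69% were higher and 6.14% lower from 3 to 4 dpf.

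Of 14 genes of cholesterol delivery 7 had a probe. From 1 to 2 dpf 1 was higher and 3 were lower, beside 12.3% and 12.8% of all probes. From 2 to 3 dpf 2 were higher and 1 lower, beside 8.97% and 7.29%. From 3 to 4 dpf 3 were higher and 0 lower, beside 4.69% and 6.14%. ldlra, a receptor for low-density lipoprotein, rose by 3.27 from 2 to 3 dpf (adjusted p = 4.88e-07) and scarb1, a receptor for high-density lipoprotein, by 1.67 from 3 to 4 dpf (adjusted p = 0.00114). The DMSO means of scarb1 were 9.05, 7.82, 6.82 and 8.49 at 1, 2, 3 and 4 dpf. npc2, which hands cholesterol out of lysosomes, fell by 0.97 from 1 to 2 dpf (adjusted p = 3.07e-06), and stard3, a relative of star, by 0.95 (adjusted p = 0.000593). None of the 7 had an adjusted p under 0.05 for E2. In limma scarb1 alone had an unadjusted p under 0.05 at 3 dpf (0.0194), beside 2748 of all 43603 probes.

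Regulators of steroid-producing cells had a probe for 11 of 15 genes. Of these, 1 was higher from 1 to 2 dpf, beside 12.3% of all probes, and 1 from 2 to 3 dpf, beside 8.97%. From 3 to 4 dpf 2 were lower, beside 6.14%. prox1a rose by 0.83 from 1 to 2 dpf (adjusted p = 0.000183) and wt1b fell by 0.59 from 3 to 4 dpf (adjusted p = 0.0249). None of the 11 had a p under 0.05 for E2 at any age, adjusted or not. nr5a1b was above background on 0 arrays and fshr, the receptor for follicle-stimulating hormone, on 1.

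The stress axis drives cortisol synthesis through corticotropin, which is cut from the product of pomca, and 7 of its 11 genes had a probe. pomca rose by 3.36 from 1 to 2 dpf (3.24 to 6.60, SE 0.16, adjusted p = 2.06e-11), crhb, which encodes corticotropin-releasing hormone, was at least 3.85-fold higher (adjusted p = 0.00151), and fkbp5, a glucocorticoid target gene, rose by 3.97 (adjusted p = 1.1e-06). With normexp the rises of pomca and fkbp5 were 1.31 and 3.18. Of the 7 genes, 3 were higher from 1 to 2 dpf, 1 from 2 to 3 dpf and 2 from 3 to 4 dpf, beside 12.3%, 8.97% and 4.69% of all probes. None was lower at any step, beside 12.8%, 7.29% and 6.14% of all probes. With E2, fkbp5 was lower at 2 dpf, 10.3 in DMSO against 6.52 in E2 embryos (log2 change -3.78, SE 0.45, adjusted p = 0.00115), without overlap of the arrays. At 3 dpf it was 11.2 in DMSO against 9.16 in E2 embryos, also without overlap (-2.02), which passed the thresholds of the methods (unadjusted p = 4.66e-05 in limma) but not the adjusted test (adjusted p = 0.0967), and at 4 dpf the groups overlapped (-0.20). pomca was higher with E2 at 4 dpf, 9.25 against 8.45 (0.80, SE 0.14, adjusted p = 0.0134), a call that was lost without the replicate block (adjusted p = 0.595), with the 75th percentile scaling (0.226), with the scan batch as block (0.854) and in 6 of 8 fits that left out 1 array (adjusted p between 0.0412 and 0.0948).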

How the data were processed

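RNA of 28 pools of 30 whole embryos was labelled with Cy3 and hybridized to Agilent zebrafish arrays by the authors. The deposited scanner files hold spot intensity (processed signal, background-subtracted by Feature Extraction, version 10.7.3.1 per the file headers and 11.0.1.1 in the submitters' processing notes) and other columns with the deposited flags for spots well above background. The deposited series table held the same signals in 1266160 of 1266160 values and was not used further. Genome build and coordinates of the probes were not used here.

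Control spots (1417 of 45220) and outlier spots were left out, 50 probes with several spots were averaged, and log2 signals of 43603 probes were quantile normalized. Of 14110 RefSeq accessions, 10567 matched the current annotation, which named 15163 probes of 10536 genes. Whether a probe also binds transcripts of a paralog was not tested. Groups were taken from the labels and were fitted together in limma 3.58.1 (R 4.3.3) with the replicate number as a block, since the methods remove a batch effect of replicates. Same-numbered E2 and DMSO arrays deviated together from their group means in 14 of 14 pairs (r from 0.17 to 0.65). Same-numbered DMSO arrays of neighbouring ages did so in 10 of 10 pairs (0.34 to 0.65). The median r of E2 and DMSO arrays with different numbers was -0.20. At 3 and 4 dpf, replicate 3 of 1 treatment and replicate 4 of the other also deviated together (r from 0.28 to 0.45), on a shared slide. All arrays of replicate 1 shared a scan batch, and all of replicates 3 and 4 shared another. Those of replicate 2 were split over slides and scan batches, and its E2 and DMSO arrays differed in both at every age. Its DMSO arrays also changed slide and scan batch from 2 to 3 dpf and from 3 to 4 dpf. Replicate number thus cannot be fully told apart from slide and scan batch. No slide held DMSO arrays of both 2 and 3 dpf, and only replicate 1 had its DMSO arrays of 3 and 4 dpf on a shared slide. Age thus cannot be told apart from slide from 2 to 3 dpf, and not fully from 3 to 4 dpf. P-values were adjusted with the Benjamini-Hochberg method over all probes. Tables and plots were made with Python 3.11.15, pandas 2.3.3 and matplotlib 3.10.9.

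Named were all members with a probe, list genes with a call or among the 4 largest changes of a list, and the 3 genes most like each member in course. The members and lists were chosen with earlier results of these data known. Alternatives were a fit without the block, scaling to the 75th percentile, normexp background correction (offset 50) on median signals, a filter on dim probes, slide or scan batch as block, array weights, the methods' analysis of variance, and leaving out each array. Fits of further probes and list genes without the block, with other scalings, and without single arrays were added after seeing the data. The fitting steps were tested on simulated data.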

Additional observations from a re-analysis of the deposited data

Results flagged for a closer look

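In groups of 4 arrays, the gap of the highest or lowest array to its nearest neighbour was compared with the range of the group, and 6 of 48 groups over the 12 member probes had a ratio above Dixon's critical value for 4 arrays at the 95% level. Chance gives about 1 in 20 groups. On the main cyp11a1 probe, 4 dpf E2 replicate 2 stood at 4.10 and the others at 2.71 to 2.72 (ratio 0.989), with no spot above background. On the second cyp11a1 probe, 3 dpf E2 replicate 1 stood at 7.05 and the others at 1.07 to 1.79 (0.879). The third cyp17a1 probe gave 1.79 on 4 dpf E2 replicate 4 and 3.75 to 4.09 on the others (0.852), with replicates 2 and 4 not well above background. On the second hsd3b2 probe, 3 dpf DMSO replicate 2 stood at 1.97 above others at 0.64 to 0.81 (0.868), and 3 dpf E2 replicate 1 at 2.14 above others at 0.65 to 0.74 (0.941). The hsd17b1 probe gave 0.37 on 3 dpf E2 replicate 1 and 0.64 to 0.67 on the others (0.906), none of them well above background. The array of 3 dpf E2 replicate 1 thus appears in 3 of the 6 cases, and its part in them was not tested.

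The E2 effect differed between ages for 2 genes of the lists around the members, by the F-test of the stage-by-E2 terms in limma. These were cyp19a1b (adjusted p = 0.00144), with a larger increase at later ages, and fkbp5 (adjusted p = 0.0125), with log2 changes of -3.78 at 2 dpf and -2.02 at 3 dpf, without overlap of the arrays at either age, and of 0.29 at 1 dpf and -0.20 at 4 dpf.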

How the results depend on the processing

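The counts of 0 members for E2 at each age and for the difference between ages held under every alternative run, and from 1 to 2 dpf 3 members changed, or 4 with normexp, slide as block and array weights, which added hsd17b3, always with star and cyp11a1 among them. Normexp drew the log2 changes of dim probes towards 0. Leaving out single arrays gave 3 to 3 members from 1 to 2 dpf, 0 to 1 from 2 to 3 dpf, 1 to 1 from 3 to 4 dpf, and 0 to 0 for E2. Without the replicate block, that is without the pairing of arrays by number, 0 members in place of 1 changed from 3 to 4 dpf, and calls over all probes fell from 10928, 7092 and 4723 to 7324, 4020 and 2206 at the 3 steps of age. From 2 to 3 dpf, 1 member in place of 0 was called with the 75th percentile scaling, normexp, the filter on dim probes (31920 probes and 5 of 7 members kept) and array weights, in each case cyp17a1 (-0.63, -0.64, -0.63 and -0.74), without 3 dpf E2 replicate 1 (cyp17a1, -0.61, adjusted p = 0.0208), and with the methods' analysis of variance (cyp11a1). hsd3b2 from 1 to 2 dpf lost its call with the 75th percentile scaling (adjusted p = 0.0567), and hsd17b3 passed with it (-1.52, adjusted p = 0.044), with normexp (-0.45, 0.0203), slide as block (-1.69, 0.0272) and array weights (-1.77, 0.0194). The causes were not tested.

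Signs turned only in changes that did not pass the test. The 75th percentile scaling gave E2 changes of 0.84 for cyp11a1, 0.80 for hsd3b2 and 0.17 for hsd17b3 at 3 dpf, 0.00153 for cyp17a1 at 1 dpf and 0.04 for hsd3b2 at 2 dpf, and it moved the median of all probes for E2 at 3 dpf from -0.02 to 0.24. Normexp gave -0.0112 for cyp11a1 with E2 at 2 dpf, 0.0121 for cyp17a1 with E2 at 1 dpf, -0.0361 for hsd3b2 from 2 to 3 dpf and 0.00312 for hsd17b3 from 3 to 4 dpf. Slide as block gave E2 changes of 0.0135 for star and 0.11 for hsd17b3 at 1 dpf, 0.095 for cyp11a1 at 3 dpf and 0.0082 for hsd3b2 at 4 dpf, and 0.20 for hsd3b2 from 3 to 4 dpf. Scan batch as block gave 0.16 for hsd3b2 at 4 dpf and 0.15 for hsd17b3 at 1 dpf, and array weights gave 0.0879 for cyp11a1, 0.14 for hsd3b2 and 0.0384 for hsd17b3 at 3 dpf. Leaving out single arrays turned the E2 change of star at 1 dpf (-0.41 to 0.20), of cyp11a1 at 1 dpf (-0.48 to 0.73), 3 dpf (-0.15 to 0.23) and 4 dpf (-0.0842 to 0.68), of cyp17a1 at 1 dpf (-0.14 to 0.0643), of hsd17b3 at 1 dpf (-0.73 to 0.16) and 3 dpf (-1.06 to 0.20), of hsd3b2 at 3 dpf (-0.54 to 0.18) and 4 dpf (-0.45 to 0.37), and the hsd3b2 changes from 2 to 3 dpf (-0.20 to 0.58) and 3 to 4 dpf (-0.52 to 0.20). Signal over background limits cyp19a1a and hsd17b1 at all ages, hsd3b2 from 2 dpf on, the end point of its called fall, and cyp11a1 and hsd17b3 after 2 dpf.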

Other observations

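Markers of other tissues moved with age on the same arrays of DMSO embryos, and the genes of a list did not move together. Of 3 liver genes, cp rose by 1.82 (adjusted p = 7.21e-05) and fgb by 1.39 (adjusted p = 0.00128) from 1 to 2 dpf in limma, beside 12.3% of all probes. fabp10a rose later, by 5.30 from 2 to 3 dpf (adjusted p = 6.81e-07) and by 3.59 from 3 to 4 dpf (adjusted p = 3.62e-05), while the changes of cp (0.17 and -0.39) and fgb (-0.13 and -0.20) at these steps did not pass the test. The shares of all probes called higher at these steps were 8.97% and 4.69%. Of 3 radial glia genes, fabp7a alone was called from 1 to 2 dpf, with a rise of 2.79 (adjusted p = 2.08e-07), beside 12.3% of all probes, and the median change was 1.09. From 3 to 4 dpf 2 of the 3 were lower (adjusted p under 0.05 in limma), beside 6.14% of all probes, with a median change of -0.53. Among 6 germ cell genes, 1 fell from 1 to 2 dpf, ddx4 by 1.16 (adjusted p = 0.000517), beside 12.8% of all probes. From 2 to 3 dpf nanos3 alone fell by 1.89 (adjusted p = 0.027), beside 7.29% of all probes, where the median change of the list was 0.0156.

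Of 5 genes of gonadal somatic cells, none had an adjusted p under 0.05 for E2 at any age, and the Sertoli cell gene amh alone passed the thresholds of the methods. It had higher means with E2 at 2, 3 and 4 dpf (log2 changes of 1.76, 1.395 and 1.63), with unadjusted p-values of 0.000894, 0.00194 and 0.000494 and adjusted p-values of 1, 0.654 and 0.414 in limma. At 3 dpf amh was well above background on 2 of 4 DMSO and 4 of 4 E2 arrays, with E2 values from 3.335 to 5.499. At 4 dpf it was above background on 1 of 4 DMSO and 2 of 4 E2 arrays, so that these sizes rest partly on dim signals. The median change of the 5 genes was -0.08, -0.32 and -0.23 at these ages, with sox9a at -0.14, -0.36 and -0.07 and foxl2a at -0.08, -0.32 and -0.23.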
